A study of Mus musculus with 2 samples.

Results

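Among the Nes-GFP+ cells sorted from adult mouse lung, 95 of 5915 cells met a rule for the RNA of immature thymocytes, the T cell precursors of the thymus. They were chosen by their own counts. A lung cell barcode was kept when it had more than 200 genes and under 40% of its unique molecular identifiers (UMIs, one for each captured RNA molecule) in mitochondrial genes, and a kept cell was a member when Cd8a, Cd8b1, Rag1, Themis and Dntt together had at least 2 UMIs. Members were 1.61% of kept lung cells (95% interval 1.30 to 1.96, exact Clopper-Pearson). Of the 95, 91 also had at least 5 UMIs of CD3 and T cell receptor genes, and the rest, described below, had almost none. The other 5820 kept lung cells were the comparison. The levels of those 5 genes therefore describe the choice and are no finding.

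The study made 1 single-cell library from Nes-GFP+ cells of adult mouse lung and 1 from brain, to look for neural stem cells outside the central nervous system. Both came from Nestin-GFP mice of about 6 weeks, given in the labels as C57BL/6, although the study's methods name CD1 or CD1 and C3H mixtures as the background of its wild-type mice and say that transgenic mice were bred with them. GFP in this line is driven by Nestin regulatory elements active in neural stem cells, so the gate selected reporter fluorescence and not a cell type. Tissue was minced, trypsinized and sorted for GFP before droplet capture, and the sources used here do not state how many animals were pooled. With 1 library per tissue there were no replicates, no test was made, and every interval below is a 95% interval that covers counting error only.

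T cell precursors enter the thymus without CD4 or CD8 on their surface and rearrange the gene of the T cell receptor beta chain with the RAG1 and RAG2 recombinase. A productive beta chain pairs with pre-T-alpha, encoded by Ptcra, and the cells then divide and switch on Cd8 and Cd4. The resulting double-positive thymocytes stop dividing and return to RAG expression to rearrange the alpha chain locus. Selection on peptide presented by thymic epithelial cells ends recombination, and the survivors keep CD4 or CD8, regain MHC class I and exit genes and leave for the blood.

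The 250 bases upstream of the start sites of 4 genes are printed because these genes carry the picture that follows: Rag1 marks recombination, Cd8a the coreceptor, Dntt the terminal transferase that adds bases at the joins, and Cd3d, which the rule did not use, the receptor complex. The sequences are from RefSeq on GRCm38, written 5′ to 3′ along the gene's strand and ending at the base before the start site. Capitals mark matches, on either strand, to 4 motifs of factors that act in thymocytes: CAGNTG for E proteins, TGTGGT for RUNX, CTTTGA for TCF and LEF, and AGATAA for GATA.
Rag1 (chr2:101649533-101649782, minus strand): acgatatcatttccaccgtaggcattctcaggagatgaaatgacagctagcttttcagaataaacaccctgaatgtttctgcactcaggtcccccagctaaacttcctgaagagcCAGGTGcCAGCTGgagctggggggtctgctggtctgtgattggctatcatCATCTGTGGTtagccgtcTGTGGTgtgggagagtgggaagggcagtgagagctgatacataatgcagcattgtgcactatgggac
Cd8a (chr6:71373177-71373426, plus strand): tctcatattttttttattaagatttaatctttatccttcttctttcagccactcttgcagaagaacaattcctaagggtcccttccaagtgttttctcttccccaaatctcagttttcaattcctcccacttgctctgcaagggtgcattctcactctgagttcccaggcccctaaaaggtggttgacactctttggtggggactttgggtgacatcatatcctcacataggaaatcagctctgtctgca
Dntt (chr19:41029025-41029274, plus strand): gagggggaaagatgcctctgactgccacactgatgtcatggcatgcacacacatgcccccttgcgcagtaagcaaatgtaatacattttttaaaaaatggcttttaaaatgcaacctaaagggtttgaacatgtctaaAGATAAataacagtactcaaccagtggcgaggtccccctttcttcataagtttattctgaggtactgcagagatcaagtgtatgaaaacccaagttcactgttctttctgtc
Cd3d (chr9:44981536-44981785, plus strand): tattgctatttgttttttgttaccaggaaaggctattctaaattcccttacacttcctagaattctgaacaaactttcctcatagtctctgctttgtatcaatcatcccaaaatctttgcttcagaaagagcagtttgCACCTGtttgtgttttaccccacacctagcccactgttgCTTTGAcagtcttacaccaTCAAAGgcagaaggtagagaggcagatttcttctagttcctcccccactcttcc
Among 32851 RefSeq promoter windows of the same length, CAGNTG occurred in 44.8%, TGTGGT in 14.0%, CTTTGA in 13.8% and AGATAA in 9.99%. The Rag1 window held 3 E-protein letters, beginning at -135, -128 and -85 from the start site, and 2 RUNX letters at -81 and -67, of which the first overlaps the E-protein letters before it. The Dntt window held a GATA match at -112. The Cd3d window held an E-protein match at -112 and TCF and LEF matches at -73 and -54, and the Cd8a window held none of the 4. These letters are a description of the windows and not evidence of binding.

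In all, 36816962 UMIs were counted for lung and 26221173 for brain. Members were shallow, with 911 to 13536 UMIs per cell and a median of 1804, against a median of 5781 in the other cells; their median gene number was 1068 against 2512.5, and their median mitochondrial share 6.65% against 4.51%. The depth gap is why shares of cells with a UMI are also given after each cell had been thinned to 1000 UMIs, which left 94 members and 5700 other cells. Scrublet, a doublet caller, marked 157 kept lung cells (2.65%), 1 of them a member. The lung and brain libraries shared 15 barcodes, 2 of which were members. Among these 15 were 7 barcodes that held under 1.2 UMIs per gene in both libraries, against a median of 2.32 in kept lung cells: 2 of the 7 consisted of a repeated base or of undetermined bases, and 5 overlapped each other in sequence. One of the 7 was a member, with 4858 UMIs over 4742 genes and 1 receptor UMI. Leaving out the 7 barcodes moved none of the values recomputed without them beyond its counting interval.

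**Figure D1:**
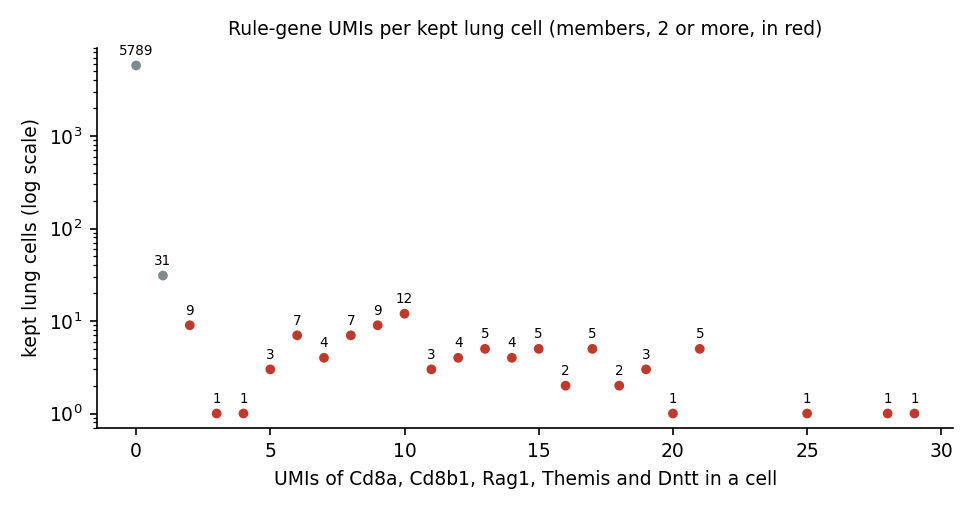
Number of kept lung cells (vertical, log scale) by their UMIs of Cd8a, Cd8b1, Rag1, Themis and Dntt (horizontal); grey points are other cells and red points members. The count drops from 5789 cells at 0 to 31 at 1, 9 at 2 and 1 each at 3 and 4, and then forms a second group that reaches 29 UMIs.

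The rule genes were at 0 in nearly all of the other cells. Of kept lung cells, 5789 had no UMI of the 5 genes and 31 had 1, whereas 84 members had 5 or more, with a median of 10 and a highest value of 29. Just inside the threshold were 9 members with exactly 2 UMIs, 5 of which also had at least 5 UMIs of CD3 and receptor genes, and just outside it were the 31 cells with 1 UMI, 4 of which did. Those 31 cells had a median of 0 CD3 and receptor UMIs.

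Genes that the rule did not use matched the label. The T cell receptor is assembled from alpha and beta chains, whose constant parts are encoded by Trac, Trbc1 and Trbc2, and from the CD3 chains Cd3d, Cd3e, Cd3g and Cd247. These 7 genes, with the gamma constant genes Tcrg-C1 and Tcrg-C2, had 3414 UMIs in members, or 11971 counts-per-million (CPM, UMIs of a gene per 1000000 UMIs summed over the cells of a group), against 21.4 CPM in the other cells, a ratio of 560.3 (518 to 606). After thinning, 95.7% of members and 0.614% of other cells had such a UMI. Before thinning, 97.8% of the other cells, whose median depth was higher, had none.

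A set of 4 members stood apart, each with exactly 2 rule UMIs. They held 0 or 1 CD3 and receptor UMIs, 24 of the members' 29 Nes UMIs, and 7.82 to 37.5 UMIs of stromal and endothelial markers per 1000, against a median of 1.42 in members and 28.5 in the cells without T lineage RNA. One of them was the barcode with under 1.2 UMIs per gene. The remaining 91 members each had at least 9 CD3 and receptor UMIs, with a median of 27 and a highest value of 248, and are called receptor-positive below. That split was drawn after the values had been seen. Of the 91, 3 had 20 or more stromal and endothelial UMIs per 1000, and 1 of these reached 124.

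**Figure D2:**
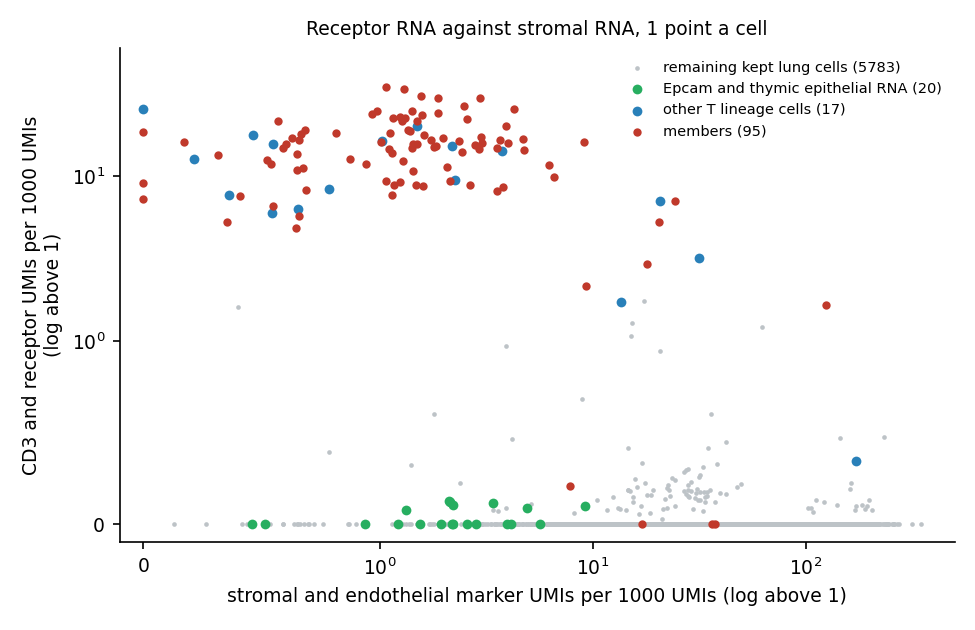
Each point is a kept lung cell, by its stromal and endothelial marker UMIs per 1000 UMIs (horizontal) and its CD3 and receptor UMIs per 1000 UMIs (vertical), both linear to 1 and logarithmic above. The 95 members (red) lie mainly at the upper left with the 17 other T lineage cells (blue), 4 members lie near 0 receptor UMIs, and the 20 cells with Epcam and thymic epithelial RNA (green) lie at the lower left.

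The beta chain was expressed in nearly every member. Trbc2 had 1438 UMIs, 0 to 127 per member with a median of 11, and was detected in 90 of 95 members against 60 of 5820 other cells. Trbc1 had 878 UMIs, 0 to 127 per member with a median of 4, and was detected in 65 members and 20 other cells. At least 1 of the pair was detected in 96.8% of members, and both in 63 of them (66.3%). The constant genes are near-identical copies, so that the division of reads between them is uncertain: of 87 members with 5 or more beta UMIs, 27 had at least 90% in Trbc2, 2 had at least 90% in Trbc1 and 58 lay between. Beta variable segments gave 29 UMIs in 24 members, and beta joining segments 15 UMIs in 14.

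Alpha chain RNA was detected in fewer members. Trac had 57 UMIs in 33 members (34.7%, 25.3 to 45.2), at most 5 in a cell, or 200 CPM against 1.32 CPM in the other cells. Alpha joining segments had 54 UMIs in 36 members and alpha variable segments 23 UMIs in 16. Counting Trac, Trav and Traj together, 57 members had alpha chain RNA, 16 of them through joining segments and without Trac. Ptcra, which marks the pre-receptor stage, had 1 UMI in all members. Of gamma-delta genes, Tcrg-C1 had 1 UMI and Tcrg-C2 and Zbtb16 none, while delta variable segments, which lie within the alpha locus, gave 7 UMIs in 7 members.

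Members expressed both recombinase genes. Rag1, one of the genes of the rule, had 283 UMIs in 71 members (74.7%, 64.8 to 83.1), with a median of 3 and a highest value of 13. Rag2, which the rule did not use, had 23 UMIs in 18 members and none in the 5820 other cells, so that it was at least 976-fold higher against a floor of 3 UMIs in that group. Both lie on chromosome 2 (GRCm38, GENCODE M21), Rag1 at chr2:101638282-101649501 on the minus strand and Rag2 at chr2:101624718-101632529 on the plus strand, and both overlap the gene B230118H07Rik, from which Rag2 reads cannot be separated unless counting used strand, which was not stated. Of the factors that process and seal the breaks, Xrcc6 was 23.8-fold higher (19.3 to 29.1), Lig4 9.86-fold (6.28 to 14.8) and Dclre1c 9.85-fold (5.28 to 17.0), whereas Xrcc5 (ratio 1.89, 0.810 to 3.74) and Prkdc (1.33, 0.431 to 3.13) had intervals that included 1. In all, 5 of 9 recombination genes with at least 50 UMIs in kept lung cells were at least 4 times higher in members, where 4.24% of the 13335 genes tested were. Rag1 and Dntt of those 5 were rule genes.

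Cd8 RNA was found in 90 of the 95 members and Cd4 RNA in 39. Cd8a had 225 UMIs in 80 members and Cd8b1 269 UMIs in 82, each against 5 UMIs in the other cells, and these were rule genes. Cd4, which the rule did not use, had 59 UMIs in 39 members and 12 UMIs in 9 other cells, or 207 against 0.330 CPM, a ratio of 626 (333 to 1279.9). Of the members, 39 (41.1%, 31.1 to 51.6) had both, 51 (53.7%) had Cd8 alone, 5 had neither and 0 had Cd4 alone. Cd8a and Cd8b1 are rule genes, so a cell with Cd4 and without Cd8 could enter only through the other rule genes, and that 0 is no finding. Among the 17 cells with receptor RNA outside the rule, described below, Cd4 had 8 UMIs in 5 cells, Cd8a 1 and Cd8b1 none. Cd4 was sparse, at most 4 UMIs in a cell, and thinning to 1000 UMIs lowered the share with both to 30.9%, so a cell without a Cd4 UMI was not thereby shown to lack Cd4. Rag1 was found together with Cd4 and Cd8 in 36 members.

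Other genes of the double-positive stage were high as well. Arpp21, an RNA-binding protein of double-positive thymocytes, had 268 UMIs in 77 members against 16 in the other cells, a ratio of 2133 (1289.6 to 3786). Ccr9, the receptor for the thymic chemokine CCL25, was 402-fold higher (291 to 565), and Aqp11 114-fold (81.9 to 157). Bcl2l1, the survival factor of this stage, was 3.86-fold higher (3.09 to 4.77), while Bcl2 had 2 UMIs. By the same threshold, 7 of 9 tested genes of the double-positive list were at least 4 times higher and none was at most 0.25 times, a level that 6.51% of all genes reached. The median ratio of that list was 113.5, against 0.858 over all genes tested.

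Several genes of the double-negative stage had few UMIs. Il2ra, which encodes CD25, had 13 UMIs, of which 1 member held 11. That cell had 6335 UMIs, 85 of CD3 and receptor genes and 9 of Dntt, and none of Cd8a, Cd8b1, Rag1, Cd4, Trac or Ptcra. Kit, a marker of the earliest precursors, had 3 UMIs in members, Il7r 4, and Spi1 and Lyl1 none. Over all genes tested, 4.24% were at least 4 times higher in members. Of the 11 tested genes of the list 3 were at least 4 times higher, Il2ra, Dtx1 and Mpzl2, with 13, 7 and 2 UMIs, and its summed level was 0.535 of that in other cells (0.435 to 0.651), many of its genes being expressed by stromal and vascular cells too.

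T lineage regulators and receptor signalling genes were widespread among members. Satb1, an organizer of chromatin in thymocytes, had 509 UMIs in 88 members (ratio 88.8, 79.1 to 99.6), and Tcf7, which starts the T cell programme, 498 UMIs in 90 (ratio 32.5, 29.4 to 35.9). Bcl11b, the commitment factor, was 558-fold higher (418 to 755), Myb 744.5-fold (410.4 to 1462), Ikzf3 621-fold (286 to 1538) and Gata3 10.8-fold (8.33 to 13.9), while Tcf3 (ratio 1.89, 1.35 to 2.58) and Bach2 (0.585, 0.302 to 1.02) differed less. Of 14 tested regulators 9 were at least 4 times higher, where 4.24% of all genes tested were. Of 15 tested signalling genes 13 were, Themis of the rule among them: the kinase Lck had 277 UMIs in 83 members (ratio 706, 521 to 974), the adaptor Lat was 495-fold higher (352 to 709), and Rasgrp1 370-fold (225 to 632), whereas Fyn (1.12, 0.735 to 1.63) and Csk (1.30, 0.858 to 1.90) were also expressed by the other cells.

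Among all genes tested, the 15 with the highest ratio included the 5 rule genes, Arpp21, Trbc1, Myb and 7 others. Gm15340, a long noncoding RNA gene on chromosome 16 opposite 1600002D24Rik, had 94 UMIs in 46 members against 3 in the other cells, and Chrna9, a nicotinic receptor subunit, 64 UMIs in 43 members against 4. Txk, a T cell kinase, had 49 UMIs in 37 members against 6, and Sh2d1a, the SLAM adaptor SAP, 142 UMIs in 55 members against 21. Tespa1, which acts in thymocyte receptor signalling, had 48 UMIs in 39 members against 8, Nsg2 81 UMIs in 45 members against 11, and Xrra1 52 UMIs in 33 members against 6. These 7 genes had 3 to 21 UMIs in the other cells, so that their ratios rest on few UMIs there.

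Genes that mark selection or exit were mixed. Cd69, which follows receptor engagement, had 4 UMIs in members and Egr2 none. Itm2a was lower than in the other cells (ratio 0.172, 0.121 to 0.236), as was Egr1 (0.365, 0.293 to 0.450), of which 1 member held 34 of 89 UMIs. Of 8 tested genes of the positive-selection list, 2 were at least 4 times higher, Cd5 and Tox, and 1, Itm2a, was at most 0.25 times, with a median ratio of 0.472. Over all genes tested, 4.24% were at least 4 times higher and 6.51% at most 0.25 times. Ccr7, which guides selected cells to the medulla, had 3 UMIs, all in 1 member, and S1pr1, the exit receptor, 9 UMIs in 4 members. Of 6 tested exit genes, 2 were at least 4 times higher: Cd52, with 104 UMIs in 50 members (ratio 26.7, 21.4 to 33.1), and Ms4a4b, with 4 UMIs against 72 (7.08, 1.88 to 18.9). None was at most 0.25 times, and the list had a median ratio of 1.70 and a summed ratio of 0.986 (0.865 to 1.12). Of 6 tested MHC class I genes 1 was at least 4 times higher and 1 at most 0.25 times, with a median ratio of 0.798, near the 0.858 of all genes. H2-K1 was at 8 UMIs (ratio 0.159, 0.0688 to 0.314), H2-D1 at 22 (0.310, 0.194 to 0.469) and B2m at 78 (0.776, 0.613 to 0.969), and the peptide transporter Tap2 was 5.27-fold higher (3.87 to 7.04). Of the effector list, Gzma had 15 UMIs in 12 members against 1 in the other cells, Nkg7 2, Foxp3 2 in 1 member, and Ccl5, Gzmk and Il2rb none. Of the 9 measured genes of that list 6 had a UMI in members, with 31 UMIs in 20 members. Its summed level was 109 CPM against 1.76 CPM in the other cells, a ratio of 61.7 (38.8 to 96.1).

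Stromal and vascular markers were lower in members than in the other cells. Some values were recomputed without members of 20 or more stromal UMIs per 1000 and are given below. Beyond that, the part of these markers in the values above was not tested. Summed over each list, members had 0.224 of the pericyte level of the other cells (0.205 to 0.244), 0.209 of the fibroblast level (0.200 to 0.219), 0.219 of the smooth muscle level and 0.233 of the endothelial level. These lists covered 9, 10, 6 and 7 genes, and the summed fibroblast level ran from 0 to 1168 UMIs per 10000 across members with a median of 11.1. Hbb-bs and Hbb-bt, the beta globins, had 3 and 1 UMIs, the lowest ratios of the genes ranked, followed by Ly6a, Lpl, Fabp4 and Rnd3 with 1 or 2 UMIs each, Cldn5 with 6, Clec3b with 4, and Ccl11 and Phldb1 with 1 each. The lung epithelial markers Sftpb, Scgb1a1, Hopx and Nkx2-1 and all 4 neutrophil genes had no UMI in members, and Sftpc had 6. Of B cell genes, Ighm had 45 UMIs in 32 members against 60 in the other cells, a ratio of 95.5 (63.4 to 143), Ebf1 was at 0.152 (0.106 to 0.212), Ms4a1 and Pax5 were at 0 and Cd79a at 1. Of NK genes, members held 15 UMIs of Gzma and 2 of Nkg7, against 1 and 0 in the other cells, and none of Klrb1c or Klrd1.

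Outside the rule, 17 kept lung cells had at least 5 CD3 and receptor UMIs and 0 or 1 rule UMIs. This set was formed after the values had been seen. They had 5 to 117 CD3 and receptor UMIs and a median depth of 3814. Against them, the 91 receptor-positive members were higher in Arpp21 (ratio 28.8, 9.75 to 141), Myb (24.5, 4.27 to 980), Xrcc6 (18.1, 4.88 to 151), Bcl2l1 (9.24, 3.06 to 45.7), Trbc1 (4.88, 3.74 to 6.47) and Lck (3.44, 2.29 to 5.35), and Aqp11 was at least 7.95-fold higher. Of 4 tested exit genes 2, Cd52 and Ms4a4b, were at most 0.25 times in the members and 0 at least 4 times higher, with a median ratio of 0.289, and of 4 tested MHC class I genes 2 were at most 0.25 times, with a median of 0.192. Of 7 double-positive genes 5 were at least 4 times higher, with a median of 7.17, and the median over all genes was 1.16. Testing required a minimum of UMIs over both sets together, so a gene with few UMIs in the 17 cells can pass through the members. Of all tested genes, 703 had a ratio above 1 and 410 below 1. How far the minimum shaped these list counts and medians was not tested. The double-positive list had 56 UMIs in the 17 cells, and its summed ratio, which needs no minimum, was 5.61 (4.29 to 7.49). The effector list, with 14 UMIs in the 17 cells, was at 0.714 (0.369 to 1.45). Members were lower in Ms4a4b (ratio 0.0182, 0.00482 to 0.0486), H2-K1 (0.0298, 0.0105 to 0.0684), Ccr7 (0.0403, 0.00777 to 0.133), H2-D1 (0.106, 0.0614 to 0.176), Cd52 (0.146, 0.115 to 0.185) and B2m (0.278, 0.199 to 0.389). Trac (0.735, 0.452 to 1.23), Cd3e (0.925, 0.634 to 1.38) and Gata3 (1.54, 0.859 to 2.97) had intervals that included 1. Both sets were drawn by CD3 and receptor UMIs, so that the Trbc1, Trac and Cd3e values describe that choice. At the 4-fold threshold, 5.84% of 1113 tested genes were higher in the members and 2.34% were at most 0.25 times. Of the 17 cells, 3 had 20 or more stromal and endothelial UMIs per 1000, up to 171; without such cells on either side the ratio was 19.2 for Arpp21 and 0.0239 for H2-K1.

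The receptor-positive members without cycling genes fell into 58 with a Rag1 UMI and 19 without, a split that was also made after the values had been seen. It uses Rag1, and 1 missing UMI does not show that a cell lacked the RNA. The 19 had a median of 1942 UMIs per cell and the 58 a median of 1642, so the 19 were not the shallower set. Genes of the signalling, selection and regulator lists went both ways between the sets. At the minimum of 50 UMIs over both sets, 1 of 7 receptor signalling genes was at least 4 times higher in the 19, with a median ratio of 1.09, and 2 of 10 T lineage regulators were, with a median of 1.57. Of 3 selection genes 1, Tox, which is also on the regulator list, was at least 4 times higher and 1, Egr1, at most 0.25 times. The median over all 484 genes tested was 1.02, and 0.826% were at least 4 times higher. A gene with few UMIs can pass the minimum through the set in which it is high. Gata3, required for the CD4 lineage, had 43 UMIs in 13 of the 19 against 10 UMIs in 9 of the 58, a ratio of 11.8 (5.86 to 26.4). Cd5, which scales with receptor signal, had 31 UMIs in 9 cells against 8 in 7 (10.7, 4.80 to 26.9), and Tox, needed for positive selection, 31 UMIs in 14 cells against 19 in 12 (4.49, 2.46 to 8.41). Cd6 was 6.12-fold higher (2.66 to 15.3), the costimulatory receptor Cd28 5.03-fold (2.95 to 8.76), Cd2 4.30-fold (2.21 to 8.62), Itm2a 4.72-fold (1.71 to 14.1), Lef1 3.28-fold (1.76 to 6.16), Trac 2.75-fold (1.55 to 4.88) and Cd3d 1.79-fold (1.41 to 2.28). Nr4a1 was 7.16-fold higher (2.39 to 25.6), with 10 of its 13 UMIs in 1 cell. Cd5, Cd6, Cd2, Itm2a and Nr4a1 had fewer than 50 UMIs over both sets and are not among the tested genes counted above. Of the same lists, the 19 were lower in Lck (0.633, 0.437 to 0.897), Lat (0.605, 0.353 to 0.990), Bcl11b (0.547, 0.351 to 0.824), Runx1 (0.344, 0.106 to 0.872) and Egr1 (0.0874, 0.0104 to 0.329), of whose 63 UMIs in the 58 cells 1 cell held 34. Id3 was at 0.980 (0.565 to 1.64). Ikzf2, the Helios gene, which was added after its values had been seen, had 33 UMIs in 10 of the 19 against 1 UMI in the 58.

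Of 7 tested double-positive genes 6 had a ratio below 1 in the same 19 cells, 1 of them at most 0.25, and the median was 0.408, where 47.7% of all genes tested were below 1. Ccr9 was the exception, 1.99-fold higher (1.40 to 2.81), and Cd24a, with fewer UMIs than tested genes, was 2.57-fold higher (1.15 to 5.71). Rag2 had 1 UMI in them against 21 in the 58 (ratio 0.131, 0.00317 to 0.815). Cd4 had 4 UMIs in 3 cells against 53 in 34 (0.208, 0.0546 to 0.564), Arpp21 23 in 10 cells against 189 in 54 (0.335, 0.207 to 0.518), and Dntt, a rule gene, 16 in 7 cells against 127 in 46 (0.347, 0.192 to 0.585). Cd8b1 was at 0.498 (0.330 to 0.728) and Bcl2l1 at 0.386 (0.159 to 0.814), while Trbc1 (1.01, 0.825 to 1.23), Trbc2 (1.05, 0.907 to 1.21) and Cd8a (0.738, 0.499 to 1.07) had intervals that included 1. Of the exit genes, Ccr7 had 3 UMIs in 1 of the 19 and S1pr1 none, Gimap6 was 2.91-fold higher (1.44 to 5.87), Cd52 2.29-fold (1.497 to 3.47), with 27 of its 44 UMIs in 1 cell, and Klf2 was at 0.440 (0.180 to 0.936); the summed ratio of that list was 1.67 (1.25 to 2.22). H2-K1 was at 0 in the 19. Of the 484 genes tested 3.31% were at most 0.25 times, including stromal genes of which 1 of the 58 held most UMIs. Without members of 20 or more stromal and endothelial UMIs per 1000, the ratio was 11.5 for Gata3, 14.1 for Cd5 and 0.210 for Cd4. That of Klf2 moved further, to 0.124 (0.00301 to 0.768), with 1 UMI against 22. The cell with 11 Il2ra UMIs was among the 19, and without it the ratio was 11.8 for Gata3, 12.3 for Cd5 and 0.175 for Dntt.

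**Figure D3:**
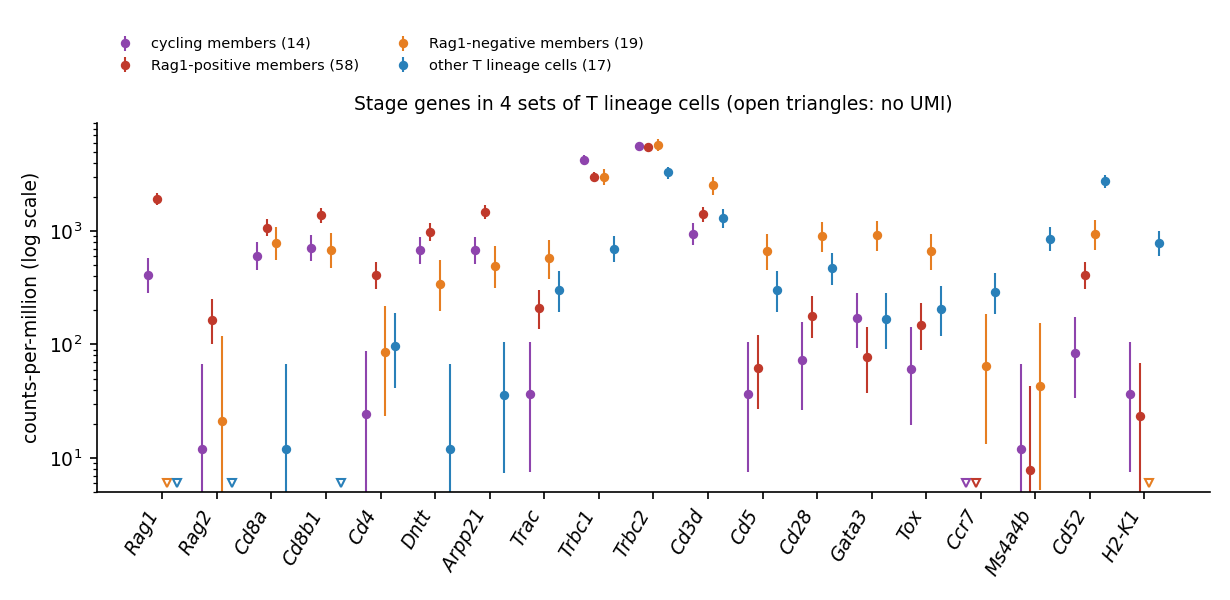
Level of 19 stage genes (vertical, counts-per-million, log scale) in the 14 cycling, 58 Rag1-positive and 19 Rag1-negative receptor-positive members and in the 17 other T lineage cells; points are summed UMIs with exact Poisson 95% intervals that cover counting error only, cut at the lower edge, and open triangles mark genes without a UMI. Rag1, which drew the groups, Arpp21 and Dntt are highest in the Rag1-positive members, Cd5, Cd28, Gata3 and Tox in the Rag1-negative members, and Ccr7, Ms4a4b and H2-K1 in the other T lineage cells.

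Cycling was read from 22 proliferation genes, and a cell with a UMI of at least 3 of them was called cycling. Of the members, 15 were cycling (15.8%, 9.12 to 24.7), against 596 of the other cells (10.2%, 9.47 to 11.0); after thinning the shares were 12.8% (6.77 to 21.2) and 7.09% (6.43 to 7.78). Of the members, 65 had no UMI of any of the 22 genes and 15 had 1 or 2. The 15 cycling members had a median of 12 of the genes and were deeper, with a median of 5361 UMIs against 1717.5 in the other 80 members. One of them was the barcode with under 1.2 UMIs per gene, and the other 14 were receptor-positive. By construction Mki67 (60 UMIs in 13 cycling members against 1 in the others) and Top2a (195 in 14 against 4) were higher. Of genes outside the list, 2810417H13Rik, a replication factor that binds PCNA, had 141 UMIs in the cycling members against 1 in the others (ratio 318.7, 56.3 to 12675). After it came Hist1h1b at 36.0-fold (22.4 to 61.7), Tuba1b at 22.8-fold (13.4 to 41.7), Hmgb2 at 21.1-fold (13.5 to 34.3) and Hist1h4d at 18.7-fold (11.6 to 31.9), along with H2afx, Dut, Tmpo and Hist1h1e, and with Ly6e, a membrane protein of immature thymocytes, at 12.2-fold (8.72 to 17.3) and in all 15.

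The rule asked for the same 2 UMIs of shallow and deep cells, which lets deeper cells in at a lower CPM, so levels of the rule genes in cycling members are a description only. The 5 rule genes together were at 0.588 (0.504 to 0.683) of their level in the other members. Rag1 and Rag2 together had 35 UMIs in the 15 cycling members and 271 in the other 80, or 400.1 against 1371 CPM, a ratio of 0.292 (0.199 to 0.416). Per cell the means were 2.33 and 3.39 UMIs. Rag1, a rule gene, gave 34 of the 35 UMIs, and Rag2, which the rule did not use, had 1 UMI against 22 (0.103, 0.00249 to 0.636). Of the other recombination genes, Xrcc6 (1.16, 0.763 to 1.74) and Dntt (0.861, 0.621 to 1.18) had intervals that included 1. Cd4 was seen in 2 of 15 cycling members against 37 of 80, and after thinning in 6.67% against 35.4%, with a ratio of 0.0793 (0.00938 to 0.300). Trac was seen in 2 of 15 against 31 of 80 (0.126, 0.0251 to 0.387), and Cd5 (0.174, 0.0344 to 0.547), Cd28 (0.209, 0.0739 to 0.479) and Satb1 (0.539, 0.428 to 0.673) were lower too.

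Beta chain RNA gave no single direction. Trbc2 had a mean of 30.8 UMIs per cell in cycling members and 12.2 in the others, with a CPM ratio of 1.07 (0.956 to 1.196). Trbc1 had 352 UMIs in the 15 cycling members (CPM ratio 1.51, 1.32 to 1.73), but 2 of them held 242 of these, with 127 and 115 each. Without those 2 cells the Trbc1 ratio was 0.603 (0.486 to 0.742), that of Trbc2 1.07 and that of the RAG genes 0.351 (0.237 to 0.505). Tcf7 (1.07, 0.881 to 1.30) and Ighm (1.02, 0.502 to 1.98) had intervals that included 1, and Cd8a and Cd8b1 were detected in 14 and 15 of the 15 cycling members. Of 922 genes tested, 4.45% were at least 4 times higher in cycling members and 8.79% at most 0.25 times, with a median ratio of 1.057. The 10 lowest were Vim, Tgfbi, Nfix, Sept4, Fstl1, Nr2f2, App, S100a11, Aspn and Sparc, many of them expressed by stromal cells, of which Sparc had 315 UMIs in the other members, 112 of them in 1 cell.

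**Figure D4:**
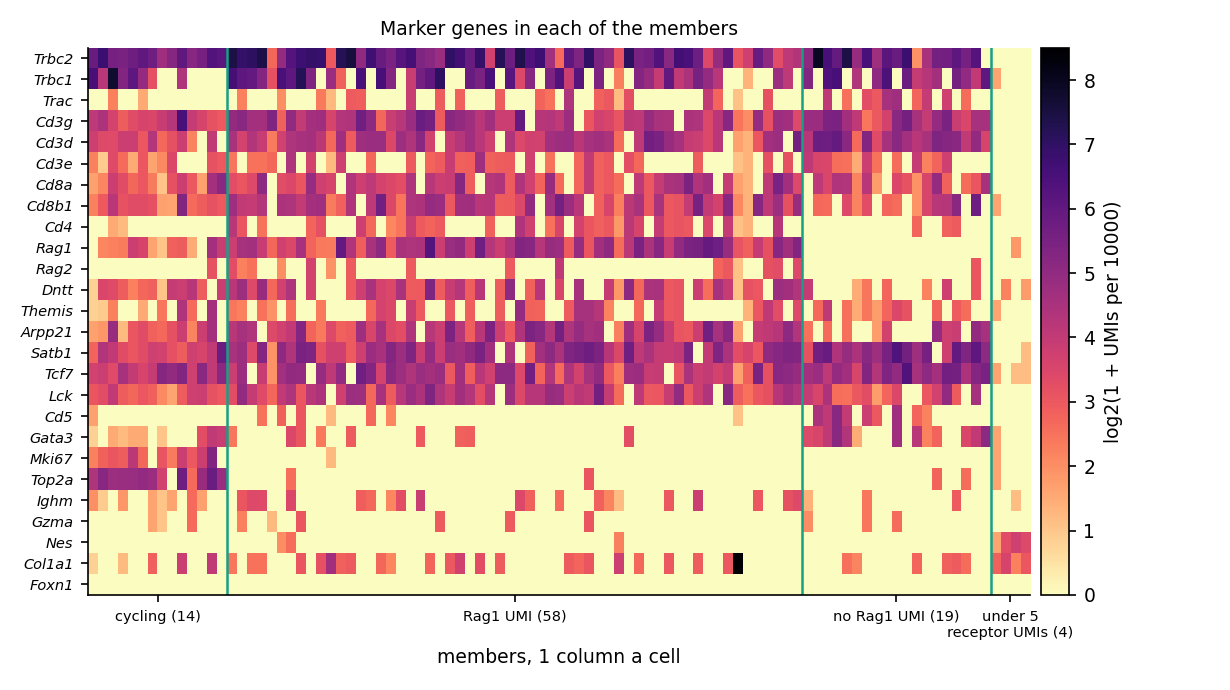
Each column is 1 of the 95 members and each row a gene, coloured by log2(1 + UMIs per 10000 UMIs); lines separate 14 cycling members, 58 with and 19 without a Rag1 UMI, and 4 with under 5 CD3 and receptor UMIs. Trbc2, Cd3g, Satb1 and Tcf7 run through the first 3 sets, Top2a stays mainly in the cycling set, and Nes lies mainly in the last.

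Genes with at least 50 UMIs were ranked by their ratio in members with Cd8 alone over members with both coreceptors. No gene list was counted in this comparison. The 5 highest ratios were those of Hist1h1e (ratio 4.30, 2.48 to 7.97), 2810417H13Rik (4.21, 2.59 to 7.24), Tipin (3.999, 1.78 to 10.5), Mki67 (3.76, 1.84 to 8.68) and Dut (3.74, 2.39 to 6.10). At the low end, after Cd4, the ratios departed further from 1, with the collagens Col1a1 (0.0823, 0.0590 to 0.112), Col1a2 (0.127, 0.0920 to 0.173) and Col3a1 (0.137, 0.105 to 0.178) and the immediate early gene Jun (0.104, 0.0426 to 0.221). A single member with both coreceptors held 330 of the 356 Col1a1 UMIs on that side. Without it the ratio was 1.02 for Col1a1, 1.02 for Col1a2, 0.795 for Col3a1, 0.143 for Jun and 4.18 for Hist1h1e. Rag1 was detected in 33 of 51 with Cd8 alone and in 36 of 39 with both (CPM ratio 0.498, 0.389 to 0.635). Rag1 and the Cd8 genes were rule genes, so that these Rag1 values are a description only. Gata3 (2.71, 1.42 to 5.60) and Cd5 (3.91, 1.63 to 11.3) were higher in those with Cd8 alone. The 51 with Cd8 alone were 13 cycling members, 23 others with a Rag1 UMI and 15 without. The 5 with neither coreceptor were the cell with 11 Il2ra UMIs, 1 further receptor-positive member and 3 of the 4 members set apart above for almost no receptor RNA.

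Thymic epithelial RNA was sought with 8 defining genes: Foxn1, the master regulator of that epithelium, the cortical genes Psmb11 and Prss16, the genes Ccl25, Ly75 and Tbata, which thymic epithelium expresses but other cells can too, and Aire and Fezf2, which drive self-antigen expression in the medulla. Members held 4 UMIs of these in 4 cells, 2 of Ccl25 and 1 each of Fezf2 and Ly75, and none of Foxn1, Psmb11, Prss16, Aire or Tbata. That was 14.0 CPM against 10.2 CPM in the other cells, a ratio of 1.38 (0.373 to 3.55) that was not separated from 1 at this depth. Of keratins, Krt5 and Krt8 had no UMI in members, Krt14 and Krt18 had at least 1 each, and Epcam had 4 and Ccl21a 3. These genes are on a list of 12 that thymic epithelium shares with other cells, of which 8 had a UMI in members. That list had 360 UMIs in 72 members, a ratio of 0.741 (0.666 to 0.821) to the other cells. In receptor-positive members it was 2.32 times (1.71 to 3.20) the level of the 17 other T lineage cells.

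The lung library did hold cells with such RNA. Among kept cells, 37 had at least 2 UMIs of the 8 genes, and none of them was a member or had a rule UMI. Of these, 20 also had 3 or more UMIs of the epithelial gene Epcam, a condition added after the values had been seen, and in the remaining 17 Ly75 had 16 UMIs, Ccl25 13, Tbata 11, Prss16 8, and Foxn1, Psmb11 and Fezf2 2 each. A single cell of the 17, with 2 Epcam UMIs, held all 8 Prss16 and both Foxn1 UMIs, and another held both Fezf2 UMIs with 51 of Ccl21a. In the 20, Foxn1 had 29 UMIs in 13 cells, and the rest of the library had 4 Foxn1 UMIs. Prss16 had 13 UMIs in 10 of the 20 cells, Tbata 59 in 9, Fezf2 15 in 6 and Aire 4 in 4; these genes took part in the choice. Genes that did not were Ccl21a, the chemokine of medullary epithelium, with 2248 UMIs in 19 of the 20 cells (0 to 209 per cell, median 117.5, or 11450 CPM against 10.5 CPM in members), Krt8 with 204 UMIs in all 20, Krt5 with 413 in 18, Krt14 with 272 in 18, and Cd74 and H2-Aa of MHC class II with 1882 and 654 UMIs in all 20. These were not particular to the 20. A further 23 kept cells had 3 or more Epcam UMIs and under 2 of the defining genes. By a limit set after the values had been seen, 20 of them had 10 or more Ccl21a UMIs (2229 in all, median 117.5 per cell), each with Krt5 and none with Sftpc, and the other 3 held all 8641 Sftpc UMIs of the 23 and no Ccl21a or Krt5. The 23 had 7 UMIs of the defining genes, 1 of them of Foxn1, so 20 counts only the cells in which such RNA was captured. In the 20 cells with the defining RNA, the lung epithelial genes Sftpc, Scgb1a1 and Nkx2-1 had no UMI, Hopx had 4, all in 1 cell, Sftpd 1, and Nes 3. Ccl21a reads can be shared with near-identical gene copies and, if strand was not used, with 4930578G10Rik on the opposite strand. The 20 cells had a median of 9600.5 UMIs. The labels name lung as the tissue, and how thymocytes and these cells came into the lung sort was not tested.

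**Figure D5:**
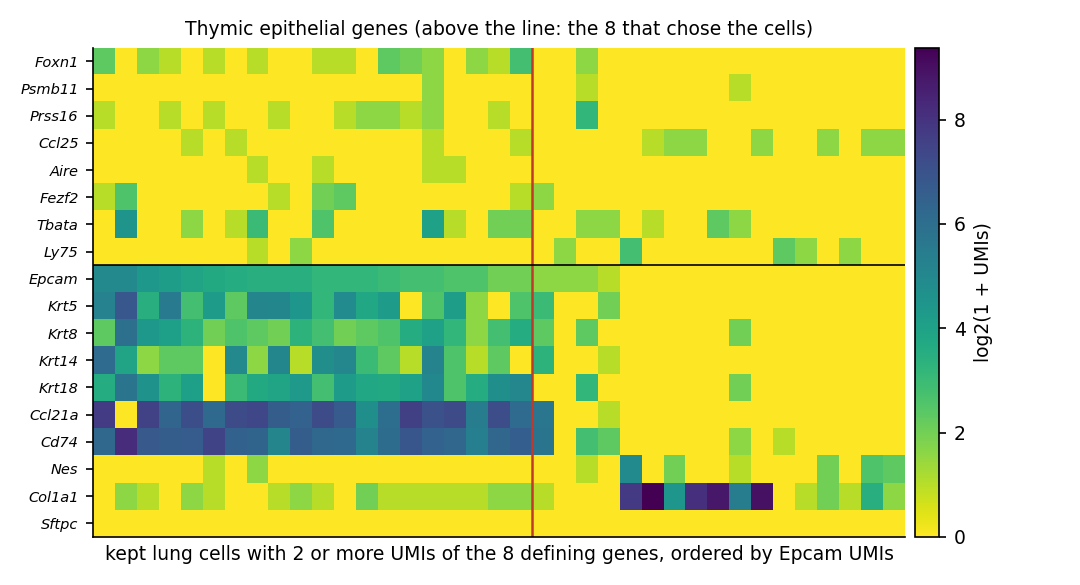
Each column is 1 of the 37 kept lung cells with at least 2 UMIs of the 8 defining thymic epithelial genes (rows above the black line), ordered by Epcam UMIs, and colour is log2(1 + UMIs). The 20 cells left of the red line, with 3 or more Epcam UMIs, also hold Krt8, Cd74 and, in 19, Ccl21a, whereas Col1a1 is highest among the cells to the right.

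The sort selected Nestin-driven GFP, but Nes RNA was low in members. Nes had 29 UMIs in 7 members (7.37%, 3.01 to 14.6), whereas 67.0% of the other cells had a Nes UMI (65.7 to 68.2), a CPM ratio of 0.277 (0.186 to 0.399). After thinning the shares were 4.26% and 28.6%. In the 91 receptor-positive members there were 5 Nes UMIs in 3 cells (3.30%, 0.685 to 9.33), or 0.0528 of the level in the other cells. The GFP transcript was not analysed here, so that the reporter in these cells was not measured.

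The brain library gave no such cells. Of 4569 kept brain cells 0 met the rule (3 cells would be 0.0657%), and 8 had 1 rule UMI; Rag1 had none. CD3 and receptor genes had 32 UMIs in the brain library and 0 cells with 5 or more. The 8 epithelial genes had 699 UMIs there, and 111 brain cells had 2 or more, but Foxn1 had none.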

How the data were processed

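The data were 2 droplet single-cell RNA libraries of Nes-GFP+ cells, from lung and from brain. Per the labels and the study's methods, the authors extracted barcodes and UMIs with UMI-tools (1.0.0 in the labels), aligned reads to mm10 with STAR 2.7.1a, assigned them to genes with Subread featureCounts 1.6.4 and deposited raw UMI counts per gene and cell barcode, of which only values above 0 are listed. The annotation version and the strand setting are not given in the sources used here. Those choices affect overlapping genes, near-identical receptor genes and reads that map to several places.

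Cells were filtered as stated in the report. UMIs were summed over cells, and CPM ratios were given with exact conditional binomial intervals, shares with Clopper-Pearson intervals and counts with exact Poisson intervals, all at 95%. A gene was tested against the background when it had at least 50 UMIs over the cells compared, and called when its CPM was at least 4 times higher or at most 0.25 times. Where a group had 0 UMIs, the bound used a floor of 3 UMIs over the group. With 1 library per group no p-value was computed, since cells are not replicates. The ratio and its interval were tested on simulated counts with known folds. Thinning drew 1000 UMIs from each cell (seed 1), and Scrublet ran in scanpy 1.11.5 with an expected rate of 0.06. The members and the gene lists were chosen with earlier results of these data known. Genes were named when on a list, or when among the 15 highest and 10 lowest ratios of members, the 10 highest and 10 lowest of cycling members and the 5 highest and 5 lowest of members with Cd8 alone. Outside that rule, Ikzf2, Cd27, Endou, Msi2, Bcl6, Tnfrsf4, Cd160 and Ifi27l2a were added after their values had been seen. Promoters came from RefSeq on GRCm38, and positions from GENCODE M21. Of 302 list genes 289 were in the lung table, and the rest, among them Trdc and Gzmb, were not analysed here; 1 measured list gene is not reported here. Alternatives changed the rule, the filters, the depth and the weight of cells. Tools were Python 3.11.15, numpy 2.4.6, scipy 1.17.1 and pandas 2.3.3.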

Additional observations from a re-analysis of the deposited data

How the results depend on the processing

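Of 113 alternative values, 90 stayed close to the reported value (within its counting interval or, for counts of cells, 1.5 times), 23 moved further and 0 reversed direction; 88 were planned and 25 were chosen after seeing the data. The number of members ranged from 82 to 126, and it, the cycling share, the thymic epithelial ratio and the RAG ratio of cycling members were not among those that moved. A rule of at least 1 UMI lowered the share of members with Cd4 and Cd8 to 31.0%, as thinning did (30.9%), the receptor ratio to 402.7 and the genes at least 4 times higher to 2.65%, and raised the Nes ratio to 0.544. The receptor ratio was 481 with at least 5 rule UMIs, 510.4 without Themis in the rule, 369 without Cd8a and Cd8b1, 504 with fewer than 4000 genes per cell, 618 with receptor-positive members only, 624 with members under 20 stromal UMIs per 1000 and 395 as a mean over cells. The Nes ratio was 0.0553 with at least 3 rule UMIs, 0.0562 with at least 5, 0.0528 with receptor-positive members, 0.175 with members of low stromal RNA and 0.125 as a mean over cells. The share of genes at least 4 times higher was 4.73% with fewer than 4000 genes per cell, 4.67% with members of low stromal RNA and 7.30% over every gene with a UMI, and 14.1% were at least 2 times higher. Cells with thymic epithelial RNA numbered 16 with at least 3 UMIs and 20 with Epcam. The cause of these moves was not tested. No paired analysis was possible because each tissue had 1 library. Depth limits the absence of Cd4, Trac and Rag1 in single cells, and no value here was checked in a second library.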

Other observations

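Genes of survival and death went both ways. The summed level of 7 genes was 1.26 times that of the other cells (1.11 to 1.42), with a median ratio of 0.928, and none was at least 4 times higher or at most 0.25 times. Bcl2l1 was 3.86-fold higher (3.09 to 4.77) and Bcl2l11, which encodes the death inducer BIM, was 3.73-fold higher (2.54 to 5.29), while Mcl1 was at 0.928 (0.748 to 1.14), Bcl2 at 0.258 (0.0312 to 0.935) and Bax at 0.750 (0.550 to 0.998). Macrophage and monocyte genes had 4 UMIs in members, and dendritic cell and MHC class II genes 10, or 0.120 of the level in the other cells (0.0574 to 0.220).

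Further genes were read after their values had been seen. Cd27, a costimulatory receptor, had 159 UMIs in 67 members, a ratio of 230.1 (176 to 302), and was 1.84-fold higher in the 19 members without Rag1 than in the 58 with it (1.27 to 2.64). Endou had 66 UMIs in 38 members and was at 0.169 (0.0336 to 0.522) in the same comparison. In that comparison Msi2 was at 0.786 (0.377 to 1.52), Bcl6 had 2 UMIs against 7, Tnfrsf4 6 against 0, Cd160 1 against 1 and Ifi27l2a none in either set.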
